A study of Mus musculus with 10 samples.

Results

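The BCL2 family of death regulators was followed in mouse splenic B cells through 10 listed genes: the pro-survival genes Bcl2, Bcl2l1, Bcl2l2 and Mcl1, the effector genes Bax and Bak1, and the BH3-only genes Bad, Bcl2l11, Bmf and Pmaip1. They are listed by name, with no threshold on a measured difference. Each gene was read from its brightest probe set, judged by the mean of all 10 arrays, among those assigned to its symbol alone. On that rule 9 of the 10 genes could be followed, out of 18194 genes in all, through 32 probe sets. Bax was not analysed here. All 9 genes passed the filter on low signals, set at log2 4 and to be exceeded on 3 or more arrays, which 17204 genes passed.

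Whole-genome Affymetrix expression arrays were hybridised with RNA from 3 groups of sorted cells. Naive B cells (n = 4) came from spleens of unimmunized Balb/c mice. Germinal centre (GC) B cells came from Balb/c background mice that carry a heavy chain transgene together with a deletion of their own JH locus, either VH186.2-Tg JH KO, called B1-8 (n = 3), or V23-Tg JH KO, called V23 (n = 3). Those mice had received 50 µg of the hapten conjugate NP-CGG in alum 14 days earlier, and λ+ PNA+ B220+ cells were sorted, so that each line is seen only through cells with a λ light chain. All cells were kept in buffers with 0.05% sodium azide. The labels name no transgene or JH deletion for the naive mice and do not say how naive cells were stained. Immunization separates the naive group from both GC groups, and any difference in transgene, JH deletion or stain runs with it and cannot be told apart from it. The labels give no age or sex and do not say whether arrays of a group came from separate animals; where they did not, the spread behind each p-value may be technical.

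The proteins of this family meet at the mitochondrial outer membrane. Pro-survival members hold the effectors Bax and Bak in check, BH3-only members bind the pro-survival members or act on the effectors, and effectors that are set free open the membrane and let cytochrome c reach the caspase-activating apoptosome. GC B cells are known for a low Bcl2 level and for dying readily unless they are rescued by antigen and T cell help, and in mice Mcl1 is needed for GC to form.

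The upstream sequence of Bcl2 is shown because Bcl2 had by far the widest separation between naive and GC cells, and that of Bcl2l11, which encodes Bim, because among the 9 members with a window to search it was the one that held a FOXO motif. Both are the 250 bases before a RefSeq start on build GRCm38.p6, written 5′ to 3′ along the gene's strand: chr1:106714291-106714540 on the minus strand for Bcl2, and chr2:128125788-128126037 on the plus strand for the Bcl2l11 start with the motif, 1 of 2 starts listed for that gene. Capitals mark GC boxes (GGGCGG, either strand) in Bcl2 and the FOXO motif (GTAAACA) in Bcl2l11.
Bcl2: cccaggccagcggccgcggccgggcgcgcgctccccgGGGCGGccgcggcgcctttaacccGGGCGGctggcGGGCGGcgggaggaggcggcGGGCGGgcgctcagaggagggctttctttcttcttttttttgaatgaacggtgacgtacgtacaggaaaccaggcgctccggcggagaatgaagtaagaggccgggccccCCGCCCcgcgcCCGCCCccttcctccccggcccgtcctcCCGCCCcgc
Bcl2l11: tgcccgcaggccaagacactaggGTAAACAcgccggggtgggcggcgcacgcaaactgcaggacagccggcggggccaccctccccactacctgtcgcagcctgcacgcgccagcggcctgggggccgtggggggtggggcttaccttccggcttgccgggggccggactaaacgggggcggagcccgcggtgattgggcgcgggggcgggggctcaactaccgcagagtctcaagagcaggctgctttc
The Bcl2 window held 7 GC boxes, 4 on the gene's strand and 3 on the other, and was 74.8% G or C, against a median of 52.4% over 32851 such windows. The Bcl2l11 window was 72% G or C. Windows of 9 members, with 15 starts, matched by symbol; Bax is among them and Pmaip1 is not. GGGCGG occurred in 7 of the 15 windows, from 6 members, and in 32.7% of all windows. CCAAT occurred in 5 of the 15, from 3 members, and in 33.8% of all. GTAAACA occurred in 1 of the 15 and in 3.17% of all. TATAAA and TTCNNNGAA, the core shared by BCL6 and STAT motifs, occurred in none of the members' windows and in 12.4% and 7.02% of all. Both strands were searched for each motif, and in the members' windows 0 matches of different motifs overlapped. A match describes the letters in the window and nothing about binding.

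All values below are log2 signals, and differences are log2 differences with ± their standard error from limma. A gene was called where limma's p, adjusted over all 17204 genes by the Benjamini-Hochberg method, was under 0.05. Precision depended on signal: the median residual SD was 0.889 where a gene's mean was under log2 6 and 0.118 where it exceeded log2 10. In bulk samples, fewer cells of a type and less RNA per cell cannot be told apart.

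The sorted cells were checked against marker lists. For scale, 16.4% of all genes were called higher and 17.3% lower in B1-8, and 18.2% and 19.7% in V23. B cell markers had a mean log2 signal of 13.37 to 13.53 on naive, 12.95 to 13.17 on B1-8 and 12.68 to 12.99 on V23 arrays, and 2 of 6 in B1-8 and 3 of 6 in V23 were called lower. Of the GC markers, 5 of 6 GC markers were called higher in both lines, while 4 of 5 naive follicular markers in B1-8 and 5 of 5 in V23 were called lower. All 8 neutrophil markers and all 5 division markers were called higher in both lines. The log2 of the summed neutrophil signals was 11.4 to 13.8 on naive, 15.9 on all B1-8 and 15.2 to 15.8 on V23 arrays, with 0 of the 8 markers below log2 4 on any array. Naive replicate 4 stood apart, at 13.77 against 11.40 to 12.16 on the other naive arrays. Its summed macrophage value was 12.54, against 10.99 to 11.67 on those arrays. Of 4 NK cell markers 2 in B1-8 and 4 in V23 were called lower, and of 7 T cell markers 0 in B1-8 and 3 in V23, with 0 of either list called higher. Of 9 macrophage markers 1 was called higher in each line, and 0 in B1-8 and 4 in V23 lower. For division markers the summed value was 11.6 to 13.2 on naive, 14.8 to 15.0 on B1-8 and 15.1 on V23 arrays. Naive replicate 2 had the highest naive value, at 13.20 against 11.63 to 12.36 on the other naive arrays. Its mean GC marker signal was 10.37, against 8.93 to 9.71 on those arrays. The 3′ minus 5′ signal of the Actb control probe sets, a sign of RNA quality, was 1.27 to 1.65 on naive, 0.81 to 1.19 on B1-8 and 0.71 to 0.87 on V23 arrays. Many of these markers move with the naive and GC groups, as the results below do, and their part in the results was not tested.

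GC B cells of both lines had less Bcl2, Bcl2l2 and Pmaip1 message and more Bcl2l1, Bak1, Bad and Bmf message than naive B cells. Mcl1 was called lower in V23 and just missed the threshold in B1-8 (−0.28, limma adjusted p = 0.0501). In B1-8, 4 of its 5 other probe sets were called lower. Bcl2l11 was called lower in both lines on the probe set read here, but its B1-8 call held in 9 of 21 other settings and 0 of its 4 other probe sets were called. In V23 all 9 genes were called, 4 higher and 5 lower, where 37.9% of all genes were called, 18.2% higher and 19.7% lower. In B1-8 8 of 9 were called, 4 higher and 4 lower, where 33.7% of all genes were called, 16.4% higher and 17.3% lower. Called in the same direction in both lines were 8 of 9, against 30% of all genes. With the GC groups averaged, 9 of 9 were called (4 higher, 5 lower), where 41.5% of all genes were called (20.5% higher, 21% lower). GC and naive arrays did not overlap for any of the 9 genes in either line, a separation seen in 42.4% of all genes for B1-8 in 44.4% for V23 and in 35.5% for both lines together. The 2 comparisons share the 4 naive arrays, so their values are set side by side and are not independent. The plot of single arrays shows the gap between naive and GC points in each gene.

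**Figure D1:**
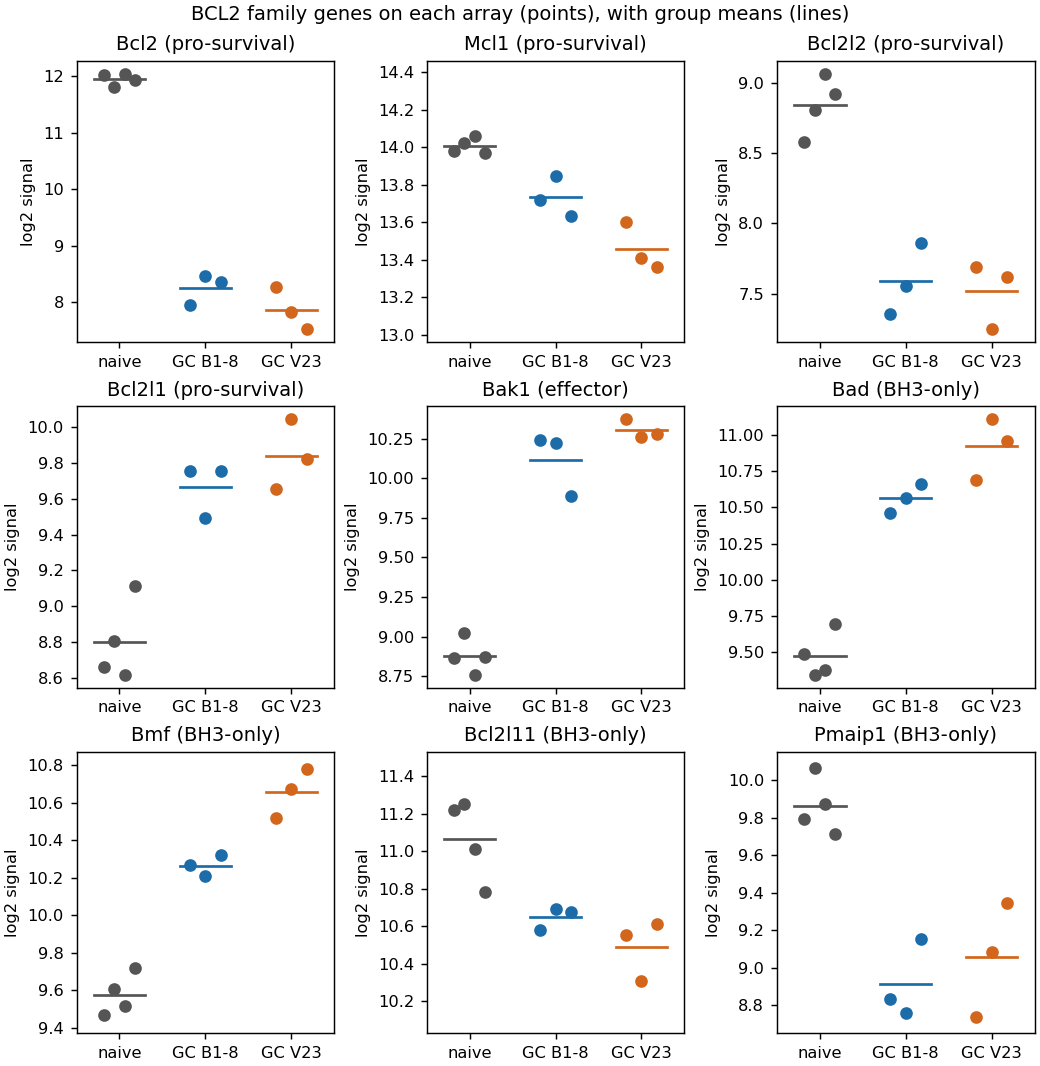
Log2 signal (vertical axis, a separate scale for each gene) of the 9 measured BCL2 family genes on each of 10 arrays, by group; points are arrays in replicate order and lines are group means. Every GC point lies below every naive point for Bcl2, Mcl1, Bcl2l2, Bcl2l11 and Pmaip1 and above every naive point for Bcl2l1, Bak1, Bad and Bmf.

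Bcl2, which keeps resting lymphocytes alive, had the largest difference in the family. Its signal was 12.01, 11.80, 12.04 and 11.93 on the naive arrays, 7.95, 8.46 and 8.35 on the B1-8 arrays and 8.27, 7.82 and 7.52 on the V23 arrays. The naive arrays lay within 0.24 of each other, and the highest GC array was 3.34 below the lowest naive one. Bcl2 was 12.9-fold lower in B1-8 (−3.69 ± 0.19, adjusted p = 8.08e-06) and 16.8-fold lower in V23 (−4.07 ± 0.19, adjusted p = 3.68e-06). With both GC groups averaged and set against naive, its fitted fall was the 52nd largest of 17204 genes.

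Mcl1 encodes a short-lived pro-survival protein. The probe set with the highest mean gave 13.98, 14.02, 14.06 and 13.97 on the naive arrays. It gave 13.72, 13.85 and 13.63 in B1-8 and 13.60, 13.41 and 13.36 in V23. The groups did not overlap, but the gap from B1-8 to naive was only 0.12. Mcl1 fell in V23 (−0.55 ± 0.09, adjusted p = 0.00164) and missed the threshold in B1-8 (−0.28 ± 0.09, adjusted p = 0.0501). The B1-8 difference passed under 6 of 21 other settings, with adjusted p-values from 0.00568 to 0.206 over all 21, and without B1-8 replicate 2 (adjusted p = 0.0487) or V23 replicate 1 (adjusted p = 0.039) among the 6.

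Bcl2l2, which encodes the pro-survival protein Bcl-w, gave 8.58, 8.81, 9.07 and 8.92 on the naive arrays. The B1-8 arrays were at 7.35, 7.55 and 7.86 and the V23 arrays at 7.69, 7.24 and 7.62. The GC groups overlapped each other and lay at least 0.72 below the lowest naive array. Bcl2l2 fell 2.39-fold in B1-8 (−1.26 ± 0.17, adjusted p = 6.81e-04) and 2.51-fold in V23 (−1.33 ± 0.17, adjusted p = 4.05e-04).

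Bcl2l1, the source of Bcl-xL, was the pro-survival member that rose. Its signal was 8.66, 8.80, 8.62 and 9.11 in naive, 9.76, 9.49 and 9.76 in B1-8 and 9.65, 10.04 and 9.82 in V23 cells. Naive replicate 4 was the highest naive array and lay closest to the GC arrays. The rise was 0.87 ± 0.15 in B1-8 (adjusted p = 0.0025) and 1.04 ± 0.15 in V23 (adjusted p = 7.93e-04), or 1.83-fold and 2.06-fold on the linear scale.

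Of the effectors, Bak1 could be followed. Bak1 was at 8.87, 9.02, 8.76 and 8.87 in naive cells, at 10.24, 10.22 and 9.88 in B1-8 and at 10.37, 10.26 and 10.28 in V23. The lowest GC array was 0.86 above the highest naive one. The rise was 2.36-fold in B1-8 (1.24 ± 0.11, adjusted p = 8.55e-05) and 2.68-fold in V23 (1.42 ± 0.11, adjusted p = 3.21e-05). Averaged with its other probe set, which did not pass the filter, the B1-8 difference was 0.49 (adjusted p = 0.215).

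The BH3-only genes split into 2 that rose and 2 that were lower. Bad, whose protein binds Bcl-2 and Bcl-xL and is held back by phosphorylation, was at 9.49, 9.34, 9.38 and 9.70 in naive cells. The B1-8 arrays were at 10.46, 10.56 and 10.66 and the V23 arrays at 10.69, 11.11 and 10.96, so that the 3 groups did not overlap. Bad rose by 1.09 ± 0.13 in B1-8 (adjusted p = 3.38e-04) and by 1.44 ± 0.13 in V23 (adjusted p = 5.88e-05).

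Bmf, whose protein is tethered to the cytoskeleton in healthy cells, showed the same order of groups. Its signal was 9.47, 9.61, 9.52 and 9.72 in naive, 10.27, 10.21 and 10.32 in B1-8 and 10.52, 10.67 and 10.78 in V23 cells. Each group was tight and clear of the next. The rise was 0.69 ± 0.10 in B1-8 (adjusted p = 8.55e-04) and 1.08 ± 0.10 in V23 (adjusted p = 6.11e-05).

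Pmaip1, which encodes Noxa, the BH3-only partner of Mcl-1, went the other way. Its single probe set gave 9.79, 10.07, 9.87 and 9.71 in naive, 8.83, 8.76 and 9.15 in B1-8 and 8.74, 9.09 and 9.34 in V23 cells. The GC groups overlapped each other, and the highest GC array was 0.37 below the lowest naive one. Pmaip1 fell 1.93-fold in B1-8 (−0.95 ± 0.17, adjusted p = 0.00252) and 1.75-fold in V23 (−0.81 ± 0.17, adjusted p = 0.0051).

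Bcl2l11 encodes Bim, which binds all pro-survival members and removes self-reactive lymphocytes. Its signal was 11.22, 11.25, 11.01 and 10.78 in naive, 10.58, 10.69 and 10.67 in B1-8 and 10.55, 10.31 and 10.61 in V23 cells. Naive replicate 4 came within 0.09 of the highest GC array. The difference was −0.42 ± 0.14 in B1-8 (adjusted p = 0.0427) and −0.58 ± 0.14 in V23 (adjusted p = 0.00942). The B1-8 call did not hold without naive replicate 1, 2 or 3, any of the 3 B1-8 arrays, or V23 replicate 1 or 3, with adjusted p-values from 0.0518 to 0.122. It also ended with median centring (adjusted p = 0.154) and with the mean of the probe sets (adjusted p = 0.222), as the V23 call did (adjusted p = 0.0688 and 0.492). The other losses of the B1-8 call were in the fit of single probe sets (adjusted p = 0.0622) and in the fit of the compared groups alone (adjusted p = 0.0608).

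**Figure D2:**
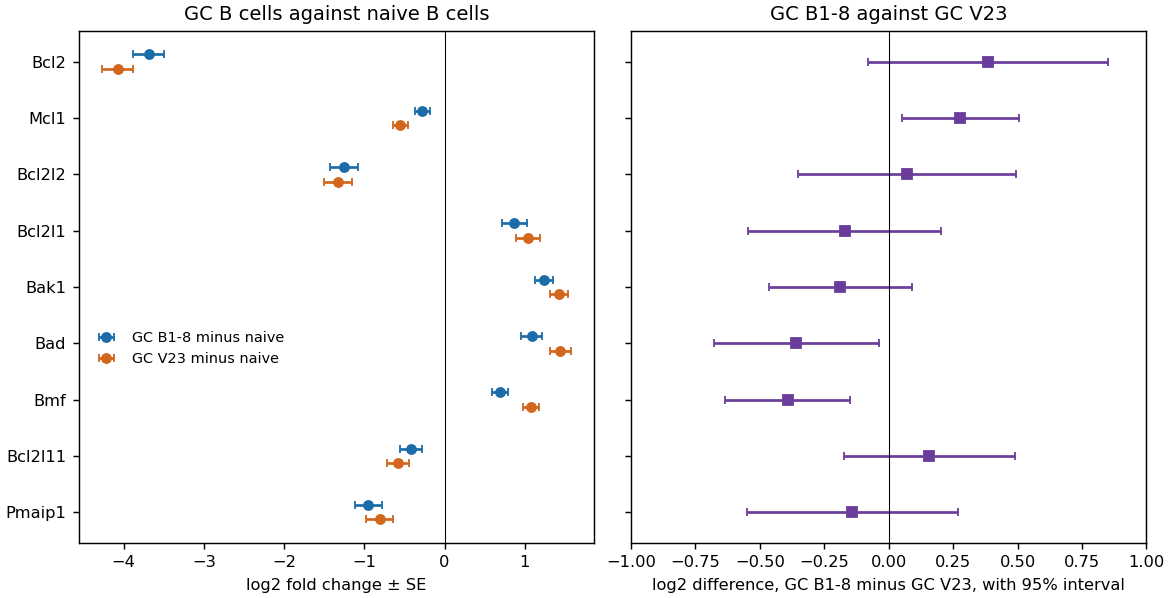
Log2 differences of the 9 genes: left, each GC line minus naive with bars for ± 1 SE; right, B1-8 minus V23 with bars for the 95% interval. Bcl2 lies at −3.69 and −4.07 on the left, and on the right the intervals of Bad, Bmf and Mcl1 leave out 0.

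The other probe sets of each gene, fitted among 41235 probe sets, mostly pointed the same way. Of 23 others, 21 passed the filter. With both GC groups averaged and set against naive, 20 of the 21 had the sign of the reported probe set and 13 were called in that direction, where 37.3% of all probe sets were called. In V23 12 of the 21 were called (33.5% of all probe sets) and in B1-8 11 (28.6%). For Bcl2 all 4 others were called lower, and the 5 probe sets ranged from −5.56 to −2.64. For Mcl1 all 5 others were called lower in that mean, with a range of −0.64 to −0.32 over 6 probe sets. In B1-8, where the reported Mcl1 probe set missed the threshold, 4 of the 5 others were called, the largest difference being −0.58 ± 0.10 (adjusted p = 0.0035).

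Bad's second probe set was called higher too, at 1.92. Bak1 and Pmaip1 had no other probe set past the filter. Agreement was partial for Bmf, Bcl2l1, Bcl2l2 and Bcl2l11. For Bmf, 1 of the others was called higher at 2.42. Its mean was 3.88 in naive cells, under the filter's log2 4, against 6.62 in B1-8 and 5.98 in V23. It may have passed the filter through the GC arrays, so its call adds little to the reported rise. The Bmf probe set with a mean log2 signal of 4.85 over all arrays was at 0.02. In the mean of both GC groups, 1 of 2 others was called for Bcl2l1 and 1 of 3 for Bcl2l2. Values for Bcl2l2 spread from −1.89 to −0.34. By line, the Bcl2l1 count was 0 of 2 in B1-8 and 1 of 2 in V23. The Bcl2l2 count was 1 of 3 in B1-8 and 0 of 3 in V23. The other Bcl2l2 probe sets were dim, with mean log2 signals of 4.80, 4.00 and 4.59 over all arrays. For Bcl2l11 0 of 4 others were called, and their values ran from −0.32 to 0.03. The brightest of them, at 9.88 ± 0.16 in naive (SD, n = 4), 9.92 ± 0.10 in B1-8 and 9.89 ± 0.46 in V23 cells (SD, n = 3), did not separate the groups. The lower Bcl2l11 signal was thus called in 1 of 5 probe sets.

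**Figure D3:**
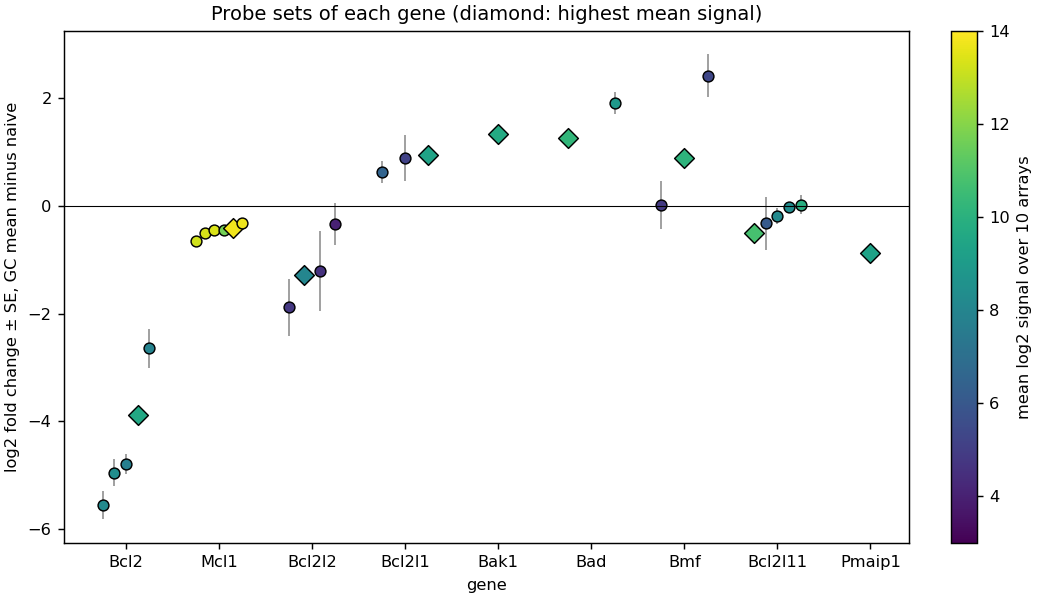
Log2 difference, mean of both GC groups minus naive, ± 1 SE, for each probe set of the 9 genes that passed the filter; diamonds are the reported probe sets and colour is the mean log2 signal. The 5 Bcl2 probe sets all lie below −2.6, while 4 of the 5 Bcl2l11 probe sets have bars that reach across or close to 0.

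Between the transgenic lines 0 of the 9 genes were called, with adjusted p-values from 0.471 to 0.961, where 0.0233% of all genes were called. At an unadjusted p under 0.05 there were 3 of 9 (7.72% of all genes). The arrays of the lines did not overlap for 4 of 9 (13.7% of all genes). Bmf was lower in B1-8 than in V23 by −0.39 (95% interval −0.63 to −0.15, limma adjusted p = 0.471) and Bad by −0.36 (−0.68 to −0.04, adjusted p = 0.612). Mcl1 was at 0.28 (0.05 to 0.50, adjusted p = 0.565). The second Bad probe set and the Bmf probe set that was called higher against naive pointed the other way, at 0.06 and 0.64. For Bcl2 the difference was 0.39 (−0.08 to 0.85), and all 5 of its probe sets were higher in B1-8. Of these, 3 had an unadjusted limma p under 0.05 and 0 were called (0.00485% of all probe sets were). The share of all probe sets under that unadjusted p was not counted. The 5 probe sets read 1 gene on the same arrays, so they are not independent. The remaining intervals were −0.47 to 0.09 for Bak1, −0.55 to 0.20 for Bcl2l1, −0.35 to 0.49 for Bcl2l2, −0.17 to 0.49 for Bcl2l11 and −0.55 to 0.27 for Pmaip1. The B1-8 mean lay between the naive and V23 means for 8 of 9 genes. The share was 69.6% of the 5163 genes called in both lines in the same direction and 51.5% of all 17204 genes. The 9 genes include Mcl1, which was not called in B1-8. Whether the order of means differs from that of other genes was not tested.

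Genes that act around the family were counted by role. Of 10 genes for mitochondrial release and the apoptosome, 7 were called higher and 1 lower in each line, where 33.7% of all genes in B1-8 and 37.9% in V23 were called in either direction, with a median log2 difference of 0.43 in B1-8 and 0.49 in V23 against 0.05 and 0.06 over all genes. The outer membrane channel genes Vdac1, Vdac2 and Vdac3 rose, Vdac3 by 1.10 ± 0.09 in B1-8 and 1.04 ± 0.09 in V23. Casp9, the initiator caspase of the apoptosome, rose by 0.49 ± 0.08 in B1-8 and was at 0.13 ± 0.08 in V23 (limma adjusted p = 0.237). Aifm1, which encodes apoptosis-inducing factor, rose by 0.41 ± 0.09 in B1-8 and 0.64 ± 0.09 in V23. The gene that fell, named after its values were seen, was the caspase inhibitor Xiap, at −0.35 in B1-8 and −0.47 in V23.

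Of 10 other effector, BH3-only and atypical members, 2 were called higher and 1 lower in B1-8, and 3 higher and 1 lower in V23, shares near those of all genes (33.7% and 37.9% in either direction). Bid, whose cleaved protein activates the effectors, rose by 0.48 ± 0.09 in B1-8 and 0.43 ± 0.09 in V23. Bcl2l15 fell, with 5 GC arrays below log2 4 and V23 replicate 1 above it. With values under 4 raised to 4, the differences, which then understate the change, were −3.17 in B1-8 and −2.69 in V23. Bik, a BH3-only gene, was below log2 4 on all naive arrays, so it passed the filter only through GC arrays, where it is high. It was called higher in V23, at 2.01 with values raised to 4, against 1.02 in B1-8 (limma adjusted p = 0.199). That call, 1 of the 3 higher in V23, is therefore not independent of the filter. Of the other pro-survival genes only Bcl2l10 was followed, and it was not called in either line.

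Of 19 regulators and partners, 7 were called higher and 4 lower in B1-8, and 8 higher and 4 lower in V23, with medians of 0.18 and 0.23. Over all genes 16.4% were called higher and 17.3% lower in B1-8, 18.2% and 19.7% in V23, with medians of 0.05 and 0.06. Fbxw7, a ubiquitin ligase subunit that marks Mcl-1 for destruction, rose by 1.45 ± 0.09 in B1-8 and 1.40 ± 0.09 in V23. Pim1, a kinase that phosphorylates Bad, rose by 1.66 ± 0.12 and 1.37 ± 0.12, while the related Pim3 fell (−0.90 ± 0.13 and −1.26 ± 0.13). Pim2, named after its values were seen, fell too (−0.73 ± 0.11 and −0.87 ± 0.11). Akt1, a kinase gene also named after its values were seen, rose (1.18 ± 0.15 in B1-8 and 1.12 ± 0.15 in V23). Foxo3, a transcription factor known to act on Bcl2l11, fell (−1.46 ± 0.14 and −1.89 ± 0.14). The related Foxo1, named after its values were seen, was not called in either line (0.18 ± 0.09 in B1-8 and 0.17 ± 0.09 in V23). Bcl6, the GC repressor known to act on Bcl2, rose by 1.13 ± 0.14 and 1.09 ± 0.14. Between the lines 0 genes of these lists were called.

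**Figure D4:**
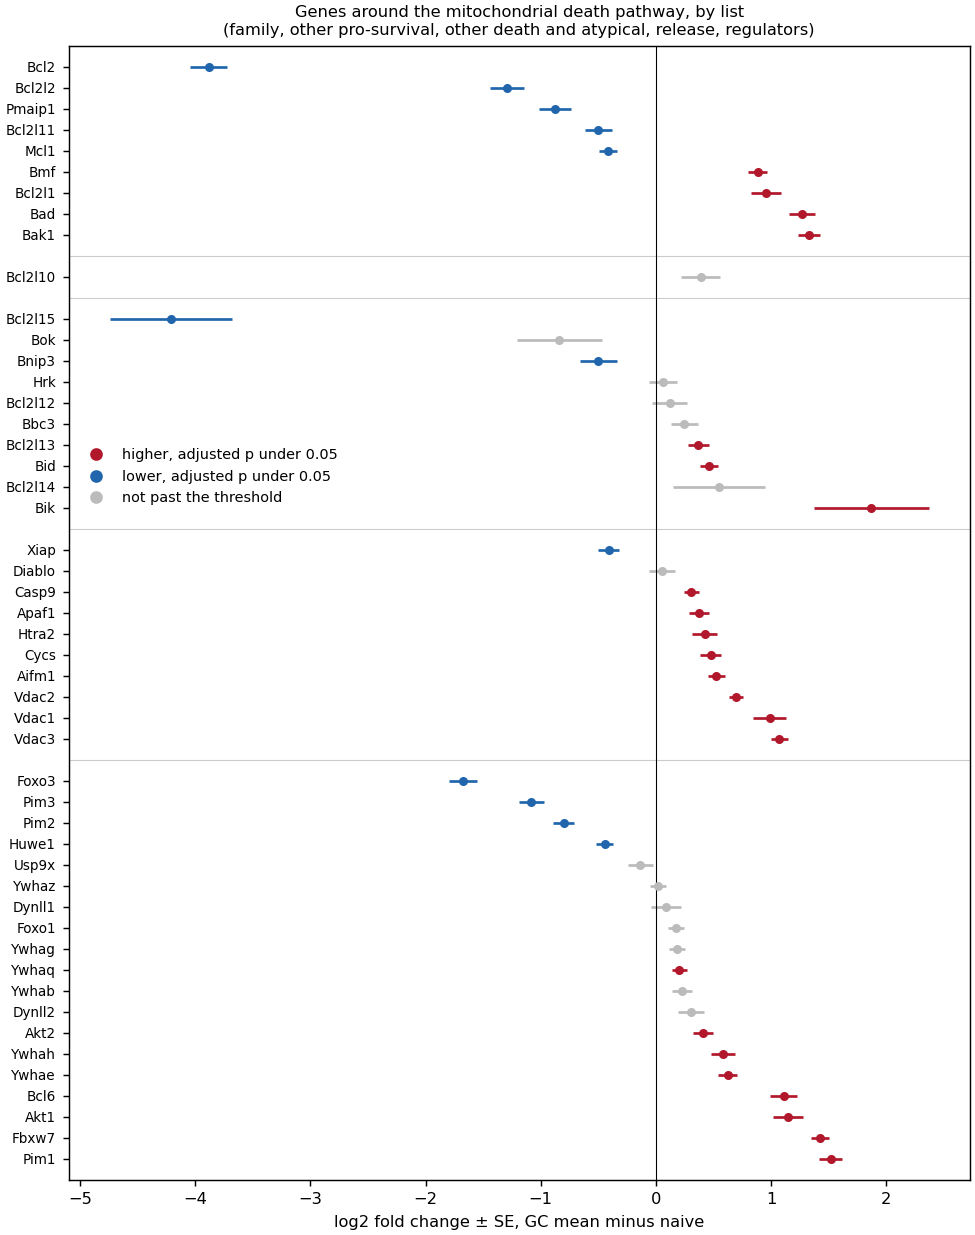
Log2 difference, mean of both GC groups minus naive, ± 1 SE, for the listed genes around the family, grouped by role; red is called higher, blue called lower and grey not past the threshold. In the release and apoptosome group 8 of 10 genes are red and 1 is blue.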

How the data were processed

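RNA from 10 sorted B cell samples had been hybridised to Affymetrix mouse whole-genome arrays. The authors deposited log2 signals for 45101 probe sets, and the labels' notes name GCRMA without a version. The values do not have GCRMA's usual form: every array has a 2% trimmed mean of 500 after unlogging and 0 shared quantiles, and the lowest value is −4.29, so the summarisation is uncertain here. Values were used as deposited. Probe sets were named through GEO's platform annotation: 34958 had 1 symbol, 932 several and 9211 none, and only those with 1 were used. Fits used limma 3.58.1 in R 4.3.3 (lmFit and eBayes, 3 group means over all 10 arrays, two-sided, 7 residual and 1.46 prior degrees of freedom), with Benjamini-Hochberg adjustment over 17204 genes. The fit was tested on simulated data. Members and lists were chosen with earlier results of these data known. All 10 members were to be named whatever their result, and in each comparison up to 4 genes of each other list by smallest p. Xiap, Pim2, Akt1 and Foxo1 were added after their values were seen. Bax and listed genes with no single-symbol probe set were not analysed here. Replicate numbers did not pair the samples (r of deviations −0.02 to 0.07 over 9 same-numbered pairs). The alternatives were 21 settings of scaling, floor, filter, probe set choice, moderation, array weights, samples, replicate block and arrays left out. Promoter windows came from RefSeq on GRCm38.p6. Array number limits the precision.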

Additional observations from a re-analysis of the deposited data

How the results depend on the processing

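Under 21 alternatives the number of the 9 genes called ranged from 7 to 9 in B1-8 (7 to 8 with 1 array left out) and from 8 to 9 in V23 (9 with 1 array left out), and under 20 alternatives from 8 to 9 in the mean of both lines (9 with 1 array left out). Between the lines it was 0 throughout. With the replicate block it was 8, 9, 9 and 0, as without it. Of the single values, 718 kept direction and side of the threshold, 17 lost their call, 6 gained one and 6 turned sign. All 6 that turned were uncalled differences between the lines: with the mean of probe sets Bmf was at 0.10, Bcl2l2 at −0.10 and Bcl2l11 at −0.11; with 1 array left out Bcl2l2 ran from −0.067 (without V23 replicate 2) to 0.19 and was at −0.06 without B1-8 replicate 3, and Pmaip1 ran from −0.30 to 0.0031 (without V23 replicate 3). The cause was not tested. Over all genes the count called between the lines was 4, with 17 under trend and robust moderation, 11 without V23 replicate 2 and 0 with the replicate block. Median centring moved the all-gene median from 0.06 to 0.16 in the mean of both lines. It turned the direction against naive of 0 of the 9 genes. Low signals limit what could be seen: the median residual SD was 0.889 below log2 6.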
